A study of Mus musculus with 6 samples.

Results

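The genes described here are Trp53, which encodes the tumour suppressor p53, its inhibitors Mdm2 and Mdm4, and 7 genes that p53 is known to switch on, namely Aen, Ccng1, Zmat3, Sesn1, Sesn2, Trp53inp1 and Phlda3. They were taken by gene symbol from the transcript table of the study. All 10 were measured, as 20 of its 21849 transcripts and 10 of its 11308 genes. The series holds RNA-seq libraries from 3 samples in which the lncRNA Dlx6-os1 was overexpressed (OE) and from 3 controls, all MPC5 cells in normal glucose. MPC5 is a conditionally immortalized mouse podocyte line, and the labels give C57BL/6 as the strain and kidney as the tissue of both groups. According to the labels, the OE cells received a lentivirus carrying dlx6-os1 and the controls a lentivirus with an empty vector, whereas the methods of the study name an adenovirus and normal controls. In the sample titles the controls are WT, and the third control was placed by its title alone, having no label for genotype. The study states in general that its measurements came from distinct samples, but no source says so of these libraries in particular, so the p-values measure only the spread between these samples. The overexpressed lncRNA itself was not analysed here.

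p53 is a transcription factor that is kept scarce in unstressed cells. Mdm2 is an E3 ubiquitin ligase that marks p53 for degradation, and Mdm4 is a relative that binds p53 and blocks its activity. DNA damage and other stresses release p53 from both, and p53 then activates genes for cell cycle arrest, DNA repair, antioxidant defence and apoptosis. Mdm2 is itself such a gene, which closes a feedback loop. Control of p53 acts mainly on the protein, which RNA-sequencing does not measure. Conditionally immortalized podocyte lines carry a temperature-sensitive SV40 large T antigen, a viral protein that binds p53. This can limit the line as a model of the pathway. Whether the antigen was present in these samples was not examined.

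Values are FPKM, a fragment count corrected for transcript length and for how many fragments each library mapped, summed over the transcripts of each gene. FPKM is scaled to length, so levels can be compared between genes, but only roughly. A trend with transcript length remained, largest in control replicate 1, as given below. Phlda3 had the highest level of the 10 genes, at 259 to 316 FPKM in OE cells and 226 to 298 FPKM in controls. Ccng1 came next at 218 to 237 FPKM in OE cells, below every OE value of Phlda3, but at 154 to 256 FPKM in controls, where the ranges of both genes overlapped. Trp53 followed at 103 to 142 FPKM in OE cells and 67.1 to 121 FPKM in controls. Sesn2, Trp53inp1 and Aen overlapped in their levels. Zmat3 lay below all of them in OE cells and overlapped with Aen in controls, at 26.1 to 30.2 FPKM in OE cells and 24.4 to 32.7 FPKM in controls. Mdm2, Mdm4 and Sesn1 were the lowest, between 7.06 and 15.4 FPKM in the 6 samples.

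**Figure D1:**
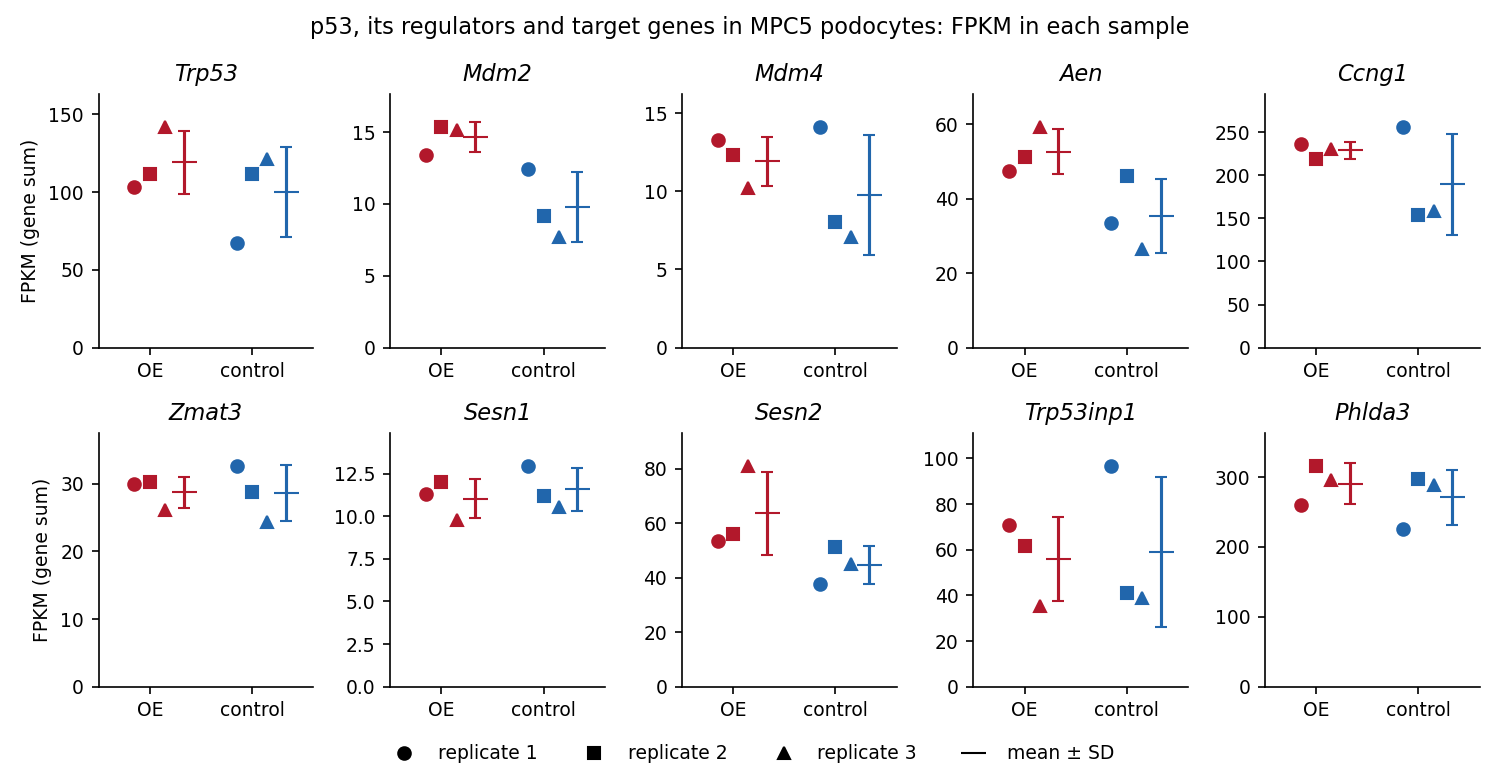
FPKM of each of the 10 genes (vertical axes, starting at 0) in the 3 OE samples (red) and the 3 controls (blue), with the mean and SD of each group beside the points. The groups do not overlap for Mdm2, Aen and Sesn2, and control replicate 1 (circle) is the highest of the 6 samples for Mdm4, Ccng1, Zmat3, Sesn1 and Trp53inp1 and the lowest for Trp53, Sesn2 and Phlda3.

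OE cells and controls were set against each other with limma on log2(FPKM + 1), and a gene was called at the thresholds of the study when its unadjusted p was under 0.05 and its fold above 1.5, a log2 change of 0.58. Aen rose in OE cells by these thresholds, and the other 9 genes were not called in either direction. The fold was taken from the mean log2(FPKM + 1) of each group. As a ratio of mean FPKM it was 1.489 for Aen and 1.501 for Mdm2, so the call of either gene depends on this choice. Over all genes, 2.49% were called higher (282) and 2.23% lower (252), a split that became 228 higher and 314 lower when samples were centred on their medians. With p-values adjusted over all genes, 0.0354% of genes passed and 0 of the 10 did, while 3 of the 10 had an unadjusted p under 0.05, all of them higher in OE cells. Over all genes, 5.29% had such a p and were higher. The 3 OE values all lay above the 3 control values for the same 3 genes, Mdm2, Aen and Sesn2, against 10.1% of all genes, and no gene of the 10 had all OE values below all control values, against 6.24% of all genes. The log2 change was above 0 for 8 of the 10 genes and for 54.2% of all genes, and its median was 0.30 over the 10 genes and 0.03 over all genes. Without control replicate 1, which stands apart in several ways given below, 2 of the 10 genes were called higher (Mdm2 and Mdm4) and the median was 0.39. The number called higher was 3 without OE replicate 1, 2 without control replicate 2, and 0 without OE replicate 3 or control replicate 3. Over all genes, 407, 253, 205 and 365 were called higher in these fits, in the same order, and 343 without control replicate 1.

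**Figure D2:**
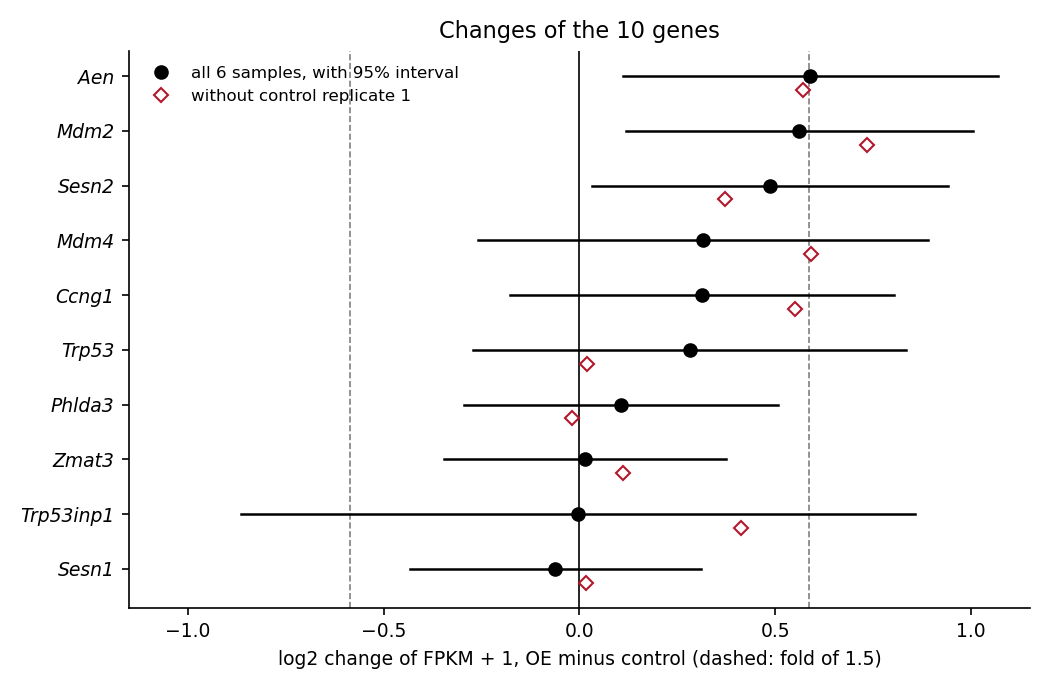
Log2 change of FPKM + 1, OE minus control (horizontal axis), for each gene with its 95% confidence interval (black), and the same change without control replicate 1 (open diamonds). The intervals of Aen, Mdm2 and Sesn2 lie above 0, and leaving out that sample moves Mdm4, Ccng1 and Trp53inp1 up and Trp53 down.

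Trp53 did not pass the test. It had 103, 112 and 142 FPKM in OE cells, against 67.1, 111 and 121 FPKM in controls. The groups overlapped, with control replicate 1 lowest of the 6 samples. The log2 change was 0.28 (SE 0.24, 95% confidence interval -0.27 to 0.83, limma adjusted p = 0.765). Without control replicate 1 it was 0.02.

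The 4 Trp53 transcripts of the table fall into a pair of splice classes. The mouse gene (chr11:69580359-69591873, plus strand, build mm10) has 11 exons in each of the 4 models, and the last exon begins either at 69591254 (Trp53-002 and Trp53-202) or 96 bases further downstream at 69591350 (Trp53-001 and Trp53-201). The choice of this acceptor replaces the end of the protein, and the shorter carboxy terminus is a known alternatively spliced form of mouse p53. The upstream acceptor leaves 52 coding bases in the last exon and the downstream one 79. Both junctions are printed from GENCODE M21 on GRCm38, with 24 bases on each side, exon 10 (chr11:69590739-69590762) in lower case and exon 11 in capitals, to show where the forms part.
Trp53 upstream acceptor junction: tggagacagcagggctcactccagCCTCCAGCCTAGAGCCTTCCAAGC
Trp53 downstream acceptor junction: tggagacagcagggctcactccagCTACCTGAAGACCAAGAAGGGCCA
The coding stretches that end each form are given whole, without the stop codon, at chr11:69591254-69591305 and chr11:69591350-69591428.
Trp53 last coding stretch, upstream acceptor: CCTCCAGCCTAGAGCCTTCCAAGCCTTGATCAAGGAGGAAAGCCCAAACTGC
Trp53 last coding stretch, downstream acceptor: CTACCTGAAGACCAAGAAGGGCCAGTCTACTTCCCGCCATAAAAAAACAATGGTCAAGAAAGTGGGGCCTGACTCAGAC

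Transcripts with the upstream acceptor made up 76.2%, 69.6% and 74.8% of Trp53 FPKM in the OE samples, against 27.7%, 75.7% and 75.2% in the controls. All samples but control replicate 1 lay between 69.6% and 76.2%. In FPKM, the upstream form had 78.8, 77.7 and 106 in OE cells, against 18.6, 84.3 and 91.3 in controls. The downstream form had 24.6, 33.9 and 35.8 FPKM in OE cells, against 48.5, 27.1 and 30.1 FPKM in controls. The mean share was 73.5% ± 3.46 in OE cells and 59.5% ± 27.5 in controls (SD, n = 3 each), and 75.4% in the other 2 controls. None of the 4 transcripts was called, and the largest log2 change, 0.85 for Trp53-002, had an SE of 0.71 (limma adjusted p = 0.748). These values are estimates that divide reads between overlapping transcripts, and their error within a sample is not known.

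**Figure D3:**
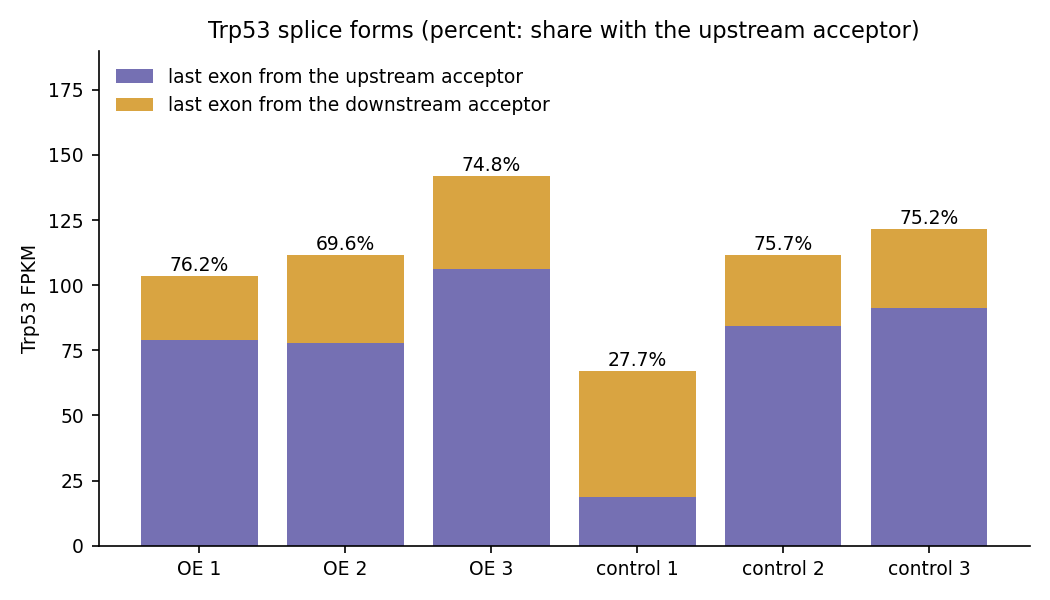
Trp53 FPKM (vertical axis, from 0) in each OE sample and each control, divided into transcripts whose last exon begins at the upstream acceptor (purple) and at the downstream acceptor (yellow). The percentages above the bars are the share of the upstream form, 27.7% in control 1 and 69.6% to 76.2% in the other samples.

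Mdm2 (chr10:117688888-117710758, minus strand) had 13.4, 15.4 and 15.2 FPKM in OE cells, against 12.4, 9.15 and 7.71 FPKM in controls. The groups did not overlap, although OE replicate 1 and control replicate 1 lay close together. Mdm2 had a log2 change of 0.56 (SE 0.19, interval 0.12 to 1.00, limma unadjusted p = 0.0189, adjusted p = 0.481), just under the fold threshold. Mdm2 passed both thresholds without control replicate 1, with a log2 change of 0.73 and an unadjusted p of 0.00175, and also without OE replicate 1 (0.62). Its unadjusted p was over 0.05 without OE replicate 2 (0.0604), OE replicate 3 (0.0502), control replicate 2 (0.0580) or control replicate 3 (0.0694).

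The difference in Mdm2 was divided unequally between its 2 transcripts. Mdm2-002 had 4.74, 7.54 and 6.41 FPKM in OE cells, against 4.73, 3.16 and 2.08 FPKM in controls, and was called higher (log2 change 0.77, SE 0.30, limma unadjusted p = 0.0377, adjusted p = 0.652). OE replicate 1 exceeded control replicate 1 only in the third digit. Mdm2-001 had 8.68, 7.83 and 8.77 FPKM in OE cells, against 7.71, 5.99 and 5.63 FPKM in controls, and was not called (log2 change 0.35, adjusted p = 0.671). The groups of Mdm2-001 did not overlap either. In GENCODE M21, exon 3 of Mdm2-002 is 46 bases longer than that of Mdm2-001, 131 against 85 bases, and its annotated coding sequence is shorter, 1320 against 1467 bases. Whether the transcripts differ in their change was not tested.

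Mdm4 (chr1:132986220-133030561, minus strand) had 13.2, 12.3 and 10.2 FPKM in OE cells, against 14.1, 8.02 and 7.06 FPKM in controls. The highest value was that of control replicate 1, above all OE values, while the other 2 controls lay below them. Mdm4 had a log2 change of 0.32 (SE 0.25, interval -0.26 to 0.89, limma adjusted p = 0.735). Without control replicate 1 it was 0.59 with an unadjusted p of 0.00900 and passed both thresholds. Over the 6 samples Mdm4 ran close to Ccng1 (Pearson r 0.93) and Mdm2 (0.79), as a description of samples that share their library and length effects.

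Aen and Phlda3 act in apoptosis. Aen (chr7:78895927-78911209, plus strand), an exonuclease that cuts nuclear DNA when p53 triggers cell death, had 47.4, 51.2 and 59.4 FPKM in OE cells, against 33.6, 46.0 and 26.5 FPKM in controls. The groups did not overlap, and OE replicate 1 lay only just above control replicate 2. The log2 change was 0.59 (SE 0.21, interval 0.11 to 1.07, limma unadjusted p = 0.0212, adjusted p = 0.482), just past the threshold of 0.58. The call was lost without OE replicate 3 (0.50), without control replicate 1 (0.57) and without control replicate 3 (0.41). It was also lost under median centring (0.55) and once a trend with transcript length was removed (0.56). In a linear model without moderation the unadjusted p was 0.0723, and the call was lost there too. Phlda3 (chr1:135766119-135769136, plus strand), which binds membrane phosphoinositides and restrains Akt, had 259, 316 and 296 FPKM in OE cells, against 226, 298 and 289 FPKM in controls. These groups overlapped widely, with a log2 change of 0.11 (interval -0.29 to 0.51).

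Most of the Aen level came from Aen-003, at 36.0, 39.1 and 43.2 FPKM in OE cells, against 22.6, 33.2 and 16.8 FPKM in controls. Its log2 change was 0.73 (SE 0.25, limma unadjusted p = 0.0240, adjusted p = 0.646), and it was called higher, with no overlap between the groups. Aen-001, which has the same 1008 coding bases but a different first exon and a longer 3' end, had 8.19, 8.09 and 8.71 FPKM in OE cells, against 7.28, 7.33 and 6.25 FPKM in controls, and was not called (0.23). Of the 20 transcripts of the 10 genes, Mdm2-002 and Aen-003 were called higher and 0 lower, against 3.07% of all transcripts higher and 2.51% lower.

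Sesn2 and Sesn1 encode sestrins, stress-inducible proteins that restrain the growth kinase complex mTORC1 and support antioxidant defence. Sesn2 (chr4:132492032-132510501, minus strand) had 53.6, 56.1 and 81.1 FPKM in OE cells, against 37.7, 51.4 and 45.0 FPKM in controls. The groups did not overlap, and OE replicate 3 was well above the other samples. The log2 change was 0.49 (SE 0.20, interval 0.03 to 0.94, limma unadjusted p = 0.0386, adjusted p = 0.526). Without control replicate 1 it was 0.37, and it passed both thresholds without OE replicate 1 (0.60) or control replicate 2 (0.59). Its unadjusted p was over 0.05 without OE replicate 3 (0.138), control replicate 1 (0.112) or control replicate 3 (0.0683). Sesn1 (chr10:41810574-41908424, plus strand) had 11.3, 11.99 and 9.79 FPKM in OE cells, against 12.96, 11.2 and 10.6 FPKM in controls. Its groups overlapped, with a log2 change of -0.06 (interval -0.43 to 0.31). The difference between the changes of the sestrins was not tested.

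Ccng1 encodes cyclin G1, an early p53 target that works with a phosphatase acting on Mdm2. The gene (chr11:40748552-40755311, minus strand) had 237, 218 and 231 FPKM in OE cells, against 256, 154 and 158 FPKM in controls. The OE samples lay within a narrow band, between control replicate 1 and the other 2 controls. Ccng1 had a log2 change of 0.31 (SE 0.21, interval -0.18 to 0.80), and 0.55 with an unadjusted p of 0.00315 without control replicate 1, under the fold threshold in both cases.

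Trp53inp1, a stress protein that promotes p53 activity and autophagy, varied most among the samples. It had 70.8, 61.8 and 35.4 FPKM in OE cells, against 96.8, 41.2 and 39.0 FPKM in controls (chr4:11156431-11174379, plus strand). The groups overlapped at both ends, and the log2 change of -0.00 had an interval of -0.86 to 0.86. Zmat3 (chr3:32334792-32365678, minus strand), an RNA-binding zinc finger protein that affects splicing and mRNA stability, had 30.0, 30.2 and 26.1 FPKM in OE cells, against 32.7, 28.7 and 24.4 FPKM in controls. With a log2 change of 0.01 and an interval of -0.35 to 0.37, its interval did not reach the 1.5-fold threshold in either direction.

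Control replicate 1 differed from the other samples in a way that followed transcript length. Over 11279 genes with a length in GENCODE M21, the median log2 level relative to the mean of the 6 samples was -0.20 in this sample for the shortest of 4 equal length classes (up to 1794 bases) and 0.23 for the longest. The gap between these classes was 0.42 there, against 0.14, 0.10 and -0.23 in the OE samples and -0.13 and -0.29 in the other controls. Among the 10 genes the difference tended the same way, with Sesn2 (-0.34) as an exception. Zmat3, the longest at 7797 bases, lay above the other controls by only 0.29. Control replicate 1 lay below the mean of the other controls by 0.79 log2 units for Trp53 and 0.38 for Phlda3, whose main transcripts have 1822 and 1435 bases. It lay above them by 1.25 log2 units for Trp53inp1 and 0.83 for Mdm4, with 5404 and 7105 bases. Pearson's r between this difference and log2 length was 0.70 over the 10 genes and 0.42 over all genes, as a description across genes, which are not independent replicates. With the trend removed from every sample, 0 of the 10 genes were called and the median log2 change was 0.27. The limma unadjusted p was then 0.0181 for Mdm2, 0.0227 for Aen and 0.0599 for Sesn2.

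**Figure D4:**
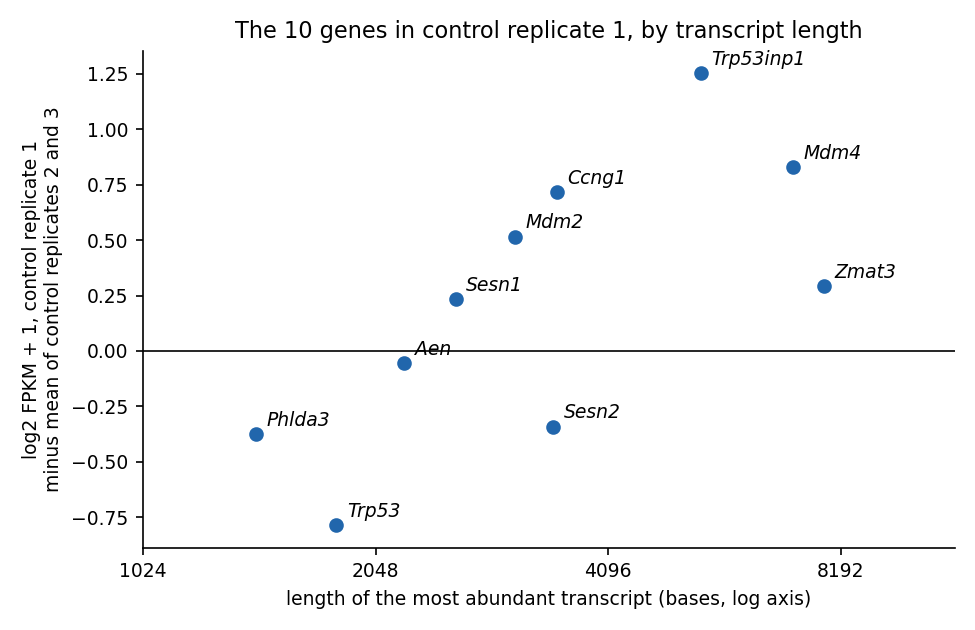
Difference in log2(FPKM + 1) between control replicate 1 and the mean of control replicates 2 and 3 (vertical axis) against the length of the most abundant transcript in bases (horizontal axis, log scale), with 1 point per gene. The shorter Trp53 and Phlda3 lie below 0 and the longer Trp53inp1, Mdm4 and Ccng1 above it, while Sesn2 lies below 0 at 3475 bases.

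The promoters of the 10 genes were searched for the p53 consensus half-site, a palindromic decamer, in the 250 bases before and 50 after each start. RefSeq promoters on GRCm38.p6 were matched for 8 of the 10 genes, as 11 promoters. A half-site was found in 6 of the 11 (54.5%), which belong to 5 genes, since both Aen windows hold the same site, against 8.36% of 32851 promoters of all genes and 14 of 70 promoters of other p53 targets. A pair of half-sites up to 13 bases apart, the form that p53 usually binds, was found in 0 of the 11, in 0.0731% of all promoters, and in 1 promoter of the other targets, that of Cdkn1a. Only exact matches were counted, so a site with a mismatch was missed, also within a pair. The matches are shown 5′ to 3′ on the strand of each gene with 10 flanking bases, the half-site in capitals, followed by the exact matches of Cdkn1a for comparison. In Cdkn1a the 10 bases right after the second match differ from the decamer only at the first base. Which decamers act as a pair there was not tested.
Trp53 (chr11:69580274-69580303): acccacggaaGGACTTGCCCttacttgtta
Mdm2 (chr10:117710925-117710954): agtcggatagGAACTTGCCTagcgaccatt
Aen (chr7:78895927-78895956): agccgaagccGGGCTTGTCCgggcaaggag
Ccng1 (chr11:40755452-40755481): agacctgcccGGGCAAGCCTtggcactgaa
Sesn1 (chr10:41887256-41887285): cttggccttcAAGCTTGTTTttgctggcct
Cdkn1a, first half-site (chr17:29090896-29090925): tcctgggtggGGACTAGCTTtctggccttc
Cdkn1a, second half-site (chr17:29090918-29090947): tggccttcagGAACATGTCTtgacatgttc
No match was found in the windows of Mdm4, Phlda3 and Sesn2 or at the other Sesn1 start. Of the 3 genes whose groups did not overlap, Mdm2 and Aen had a match and Sesn2 had none, and Trp53, Ccng1 and Sesn1, whose groups overlapped, also had one. A match is a sequence description and not evidence of binding. The 250 bases before the Mdm2 start (chr10:117710759-117711008, minus strand) are given in full with the half-site in capitals, because Mdm2 is the feedback gene of the pathway. Its well-known p53-responsive promoter lies in the first intron, outside this window.
Mdm2 upstream: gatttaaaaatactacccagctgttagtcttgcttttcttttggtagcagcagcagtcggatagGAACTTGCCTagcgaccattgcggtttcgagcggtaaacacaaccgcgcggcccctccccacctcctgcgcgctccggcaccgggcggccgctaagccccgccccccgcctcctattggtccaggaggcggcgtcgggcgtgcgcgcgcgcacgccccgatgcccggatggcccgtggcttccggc

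A wider list of 60 genes known as p53 targets was examined in the same fit, of which 58 were measured. At the thresholds of the study 1 was higher and 1 was lower, or 1.72% each, against 2.49% and 2.23% of all genes. The other 56 were not called. In limma 0 passed the adjusted threshold and 6 had an unadjusted p under 0.05, against 9.16% of all genes. Without control replicate 1 the counts were 3 higher and 1 lower, against 343 and 256 over all genes. The log2 change was above 0 for 39 of the 58 (67.2%), against 54.2% of all genes. Its median was 0.15, against 0.30 in the 10 genes and 0.03 over all genes. Ptp4a3, among the 39, had 1.54 FPKM in OE replicate 3 and 0 in every other sample. Transcripts with a mean under 0.5 FPKM in both groups had been left out, so Ptp4a3 was kept only through the OE group. The groups did not overlap for 7 genes that were higher and 2 that were lower, against 10.1% and 6.24% of all genes, so these shares lay near the background.

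Kitl, which encodes the stem cell factor ligand of the receptor Kit, was the gene called higher, at a low level of 1.91, 1.37 and 2.12 FPKM in OE cells, against 1.07, 0.555 and 0.499 FPKM in controls (log2 change 0.72, SE 0.20, limma adjusted p = 0.452). Steap3, a metalloreductase of iron uptake, was called lower, with 0.247, 0.236 and 1.19 FPKM in OE cells, against 1.52, 2.31 and 1.25 FPKM in controls (log2 change -0.83, SE 0.27, adjusted p = 0.481), a call lost without OE replicate 1 (-0.69), OE replicate 2 (-0.69) or control replicate 2 (-0.67).

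The best-known effectors of p53 were not called. Cdkn1a, the cyclin-dependent kinase inhibitor p21 that halts the cell cycle, was abundant in every sample, with 770, 892 and 828 FPKM in OE cells, against 671, 845 and 791 FPKM in controls. The groups overlapped, and its log2 change was 0.11 (interval -0.32 to 0.54). Bax, which permeabilizes mitochondria in apoptosis, had 173 to 225 FPKM in OE cells and 139 to 202 FPKM in controls, a log2 change of 0.15. Bbc3 (Puma), an apoptotic trigger upstream of Bax, had a log2 change of 0.09, Gadd45a, a growth arrest and DNA damage gene, 0.28, and Gdf15, a secreted stress cytokine, -0.23. The intervals of these 3 genes included 0.

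Besides Kitl and Steap3, the groups of 7 targets outside the naming rule did not overlap, and these were chosen after their values were seen. Gtse1, a microtubule protein that represses p53 in G2 phase, had 91.6, 89.4 and 119 FPKM in OE cells, against 57.2, 68.2 and 74.0 FPKM in controls (log2 change 0.58, limma unadjusted p = 0.0090, adjusted p = 0.455), just under the fold threshold. As a ratio of mean FPKM its fold was 1.505. Polh, the translesion DNA polymerase eta, had 18.3, 17.4 and 16.8 FPKM in OE cells, against 12.9, 11.8 and 13.8 FPKM in controls (0.42). Dcxr, a dicarbonyl and xylulose reductase, had 30.2, 30.8 and 37.4 FPKM in OE cells, against 22.7, 20.4 and 24.9 FPKM in controls (0.51). The log2 change was 0.36 for Pml, the scaffold of PML nuclear bodies, 0.24 for Ppm1d, a phosphatase that dampens p53 signalling, and 0.16 for Tigar, a fructose bisphosphatase. Thbs1, an extracellular matrix glycoprotein, had 414, 352 and 142 FPKM in OE cells, against 565, 435 and 440 FPKM in controls (-0.79). None of the 7 was called.

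Of 39 regulators, relatives and cofactors of p53, 37 were measured, with 1 higher, 0 lower and a median log2 change of 0.12, against 2.49% and 2.23% of all genes called and a median of 0.03. Chek2, the checkpoint kinase that phosphorylates p53 after DNA damage, had 16.8, 18.7 and 26.5 FPKM in OE cells, against 15.6, 12.2 and 10.9 FPKM in controls. The groups did not overlap, and it was called higher (log2 change 0.63, SE 0.21, limma adjusted p = 0.481). Without OE replicate 3 (0.44), control replicate 2 (0.60) or control replicate 3 (0.52) it was not called. Of the 37 genes, 4 that were higher and 1 that was lower had groups without overlap, against 10.1% and 6.24% of all genes. Besides Chek2, the higher ones were Trp73 (log2 change 0.49), Usp10 (0.33) and Axin1 (0.18), none of them called. Trp73 was low, with at most 0.687 FPKM and means of 0.521 FPKM in OE cells and 0.080 FPKM in controls. Transcripts with a mean under 0.5 FPKM in both groups had been left out, so Trp73 was kept only through the OE group. Its direction was thus favoured in advance. Apart from Chek2, these genes were picked with their values already known. The lower one was Cdkn2a, the locus of the Mdm2 inhibitor ARF and the cell cycle inhibitor p16. It had 174, 191 and 174 FPKM in OE cells, against 202, 270 and 242 FPKM in controls, a log2 change of -0.40 (unadjusted p = 0.0392) that did not reach the fold threshold. Its transcripts were not separated here.

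Sesn2 is also known to be induced by ATF4, the transcription factor of the integrated stress response, so 12 ATF4-driven genes were listed beside it. Of these, 1 was higher and 0 were lower, against 2.49% of all genes called higher. On the log2 scale 11 lay above 0 and the median was 0.39, against 54.2% and 0.03 over all genes. Slc7a11, among these 11, had a mean of 0.884 FPKM in OE cells and 0.344 FPKM in controls. Transcripts with a mean under 0.5 FPKM in both groups had been left out, so Slc7a11 was kept only through the OE group. Trib3, a pseudokinase induced by amino acid and endoplasmic reticulum stress, had 23.8, 27.1 and 46.2 FPKM in OE cells, against 13.5, 17.9 and 13.3 FPKM in controls, and was called higher (log2 change 1.02, SE 0.25, limma adjusted p = 0.421). The highest sample for Trib3, OE replicate 3, was also the highest for Sesn2. The median over the list, relative to the control mean, was 0.12, 0.28 and 0.69 log2 units in the OE samples and -0.04, 0.14 and -0.13 in the controls. Its part in the Sesn2 difference was not tested.

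**Figure D5:**
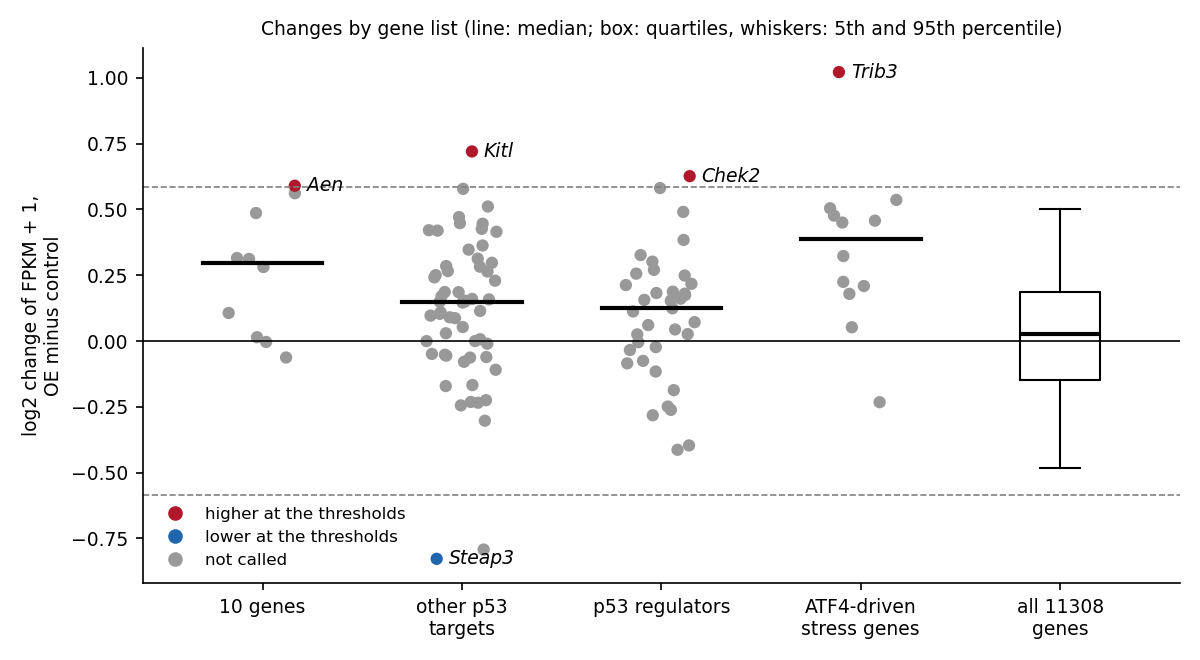
Log2 change of FPKM + 1, OE minus control (vertical axis), for each gene of the 10 genes, the other p53 targets, the p53 regulators and the ATF4-driven genes, and as a box for all 11308 genes. Points are genes, red where called higher and blue where called lower, and the medians (lines) are 0.30, 0.15, 0.12, 0.39 and 0.03.

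The mean of the 10 genes, each centred over the 6 samples on log2(FPKM + 1), was 0.12, 0.16 and 0.11 in OE cells and 0.02, -0.13 and -0.29 in controls. All OE samples lay above all controls, with control replicate 1 closest to them. This profile joins opposite patterns. Trp53 varied against Sesn1 (Pearson r -0.90), Trp53inp1 (-0.89) and Zmat3 (-0.80) over the 6 samples and with Phlda3 (0.85) and Sesn2 (0.80). The main transcripts of Trp53 and Phlda3 have 1822 and 1435 bases, against 5404 for Trp53inp1 and 7797 for Zmat3. Those of Sesn1 (2600) and Sesn2 (3475) lie between. These correlations describe samples that share the length effects given above, whose part in them was not tested. The genes outside the 10 whose profile was most like the mean were Lnx2 (r 0.993), Srfbp1 (0.990), Tmem19 (0.988), Trmt10c (0.987) and Cdc37l1 (0.985), out of 11298 genes over the 6 samples. Lnx2, for example, had 6.91, 7.15 and 6.77 FPKM in OE cells, against 6.32, 5.75 and 4.74 FPKM in controls.

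Of the cell marker lists with values, only that of tubule cells had summed levels that did not overlap between the groups. Of 13 podocyte markers 8 were measured, with a summed level of 376 to 426 FPKM in OE cells and 410 to 512 FPKM in controls, which overlapped. Of the 8, 6 lay below 0 on the log2 scale and 1, Kirrel, was called lower, against 2.23% of all genes. Kirrel had 30.0, 31.1 and 70.9 FPKM in OE cells, against 134, 131 and 119 FPKM in controls (log2 change -1.63, limma adjusted p = 0.307). Nphs1, which encodes nephrin of the podocyte slit diaphragm, was not among the genes measured. Of 10 tubule markers 4 were measured, summing to 177 to 396 FPKM in OE cells and 429 to 653 FPKM in controls, and Lrp2, Aqp1 and Cdh16 were called lower. Of 8 mesangial and fibroblast markers 4 were measured, summing to 12.3 to 18.9 FPKM in OE cells and 18.5 to 100.3 FPKM in controls, where control replicate 3 held the high value. None of the 7 endothelial markers and 2 of the 8 leukocyte markers had a value. In bulk samples fewer cells of a type and less RNA per cell cannot be told apart, and the part of these markers in the p53 results was not tested. Summed FPKM ranged from 341945 to 371806 in OE cells and from 329402 to 371469 in controls.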

How the data were processed

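RNA was sequenced by the study with a polyA, strand-keeping protocol. The authors deposited FPKM of protein-coding transcripts, scaled to transcript length and mapped fragments. The processing notes name FastQC, HISAT2, StringTie and mm10, with no annotation release stated in what was read here. Transcripts with a mean under 0.5 in both groups had been left out. Low values did not fall into steps worth 1 read (28.1% to 48.4% lay within 10% of the best step, 20% if evenly spread), so the depth is unknown. 1 emptied line was dropped.

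Groups came from the labels. FPKM were summed per gene symbol and log2(FPKM + 1) was fitted with limma 3.58.1 in R 4.3.3 (eBayes, mean-variance trend, two-sided tests), and p-values were adjusted by Benjamini-Hochberg over 11308 genes. An exact test of 3 against 3 samples cannot go below p = 0.1 and was not used. The model was tested on simulated data. The 18 alternatives changed the pseudocount, filter, scaling, moderation, transcript choice, length trend or block, or left out 1 sample. The 10 genes and the lists were chosen with earlier results of these data known. Named genes were the 10, Cdkn1a, Bax, Bbc3, Gdf15, Gadd45a, those of the target, regulator and ATF4 lists past the study's thresholds, and the 5 of most similar profile. The replicate numbers pair nothing in the labels. Some genes of the lists are not reported here.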

Additional observations from a re-analysis of the deposited data

How the results depend on the processing

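The fit was repeated under 18 alternatives, 1 of them (removal of a cubic trend with transcript length) chosen after seeing the data. Of 180 values for the 10 genes, 155 kept their direction and side of the thresholds. The number of the 10 genes called higher was 2 with a pseudocount of 0.1 or 0.5, when Mdm2 passed (0.61 and 0.59), 0 under median centring, without moderation or with the length trend removed, and 0 to 3 when 1 sample was left out. The other p53 targets called higher numbered 2 under quantile normalization or with the most abundant transcript alone, and 1 to 3 leaving out 1 sample. Those called lower numbered 2 with the length trend removed, 0 without moderation, and 0 to 1 leaving out 1 sample. Aen, the called gene of the 10, lost its call in 6 alternatives. Steap3 lost its call in 4 and Chek2 in 5, while Kitl and Trib3 kept theirs in all 18.

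Changes near 0 turned direction. Zmat3 was -0.0083 under quantile normalization, -0.024 under median centring, -0.0059 with its most abundant transcript, and -0.091 to 0.11 leaving out 1 sample. Trp53inp1 was 0.0029 under TPM and -0.23 to 0.41 leaving out 1 sample. That range was -0.12 to 0.016 for Sesn1, -0.019 to 0.19 for Phlda3 and -0.027 to 0.23 for Bbc3. Over all genes, 282 were called higher and 252 lower, against 228 and 314 under median centring and 145 and 103 without moderation. Leaving out 1 sample gave 205 to 407 higher and 182 to 380 lower over all genes. Same-numbered samples correlated at 0.29, 0.024 and 0.29 after subtraction of group means, against -0.31 to 0.11 for differently numbered samples. The pairs numbered 1 and 3 were thus the highest. The labels pair nothing by number, so the main fit had no block, and whether the samples were paired is not known. With the replicate block, 1 of the 10 genes was called higher and 0 lower, the other targets gave 1 and 2, and all genes 349 and 294. Leaving out 1 sample ended or made calls of Aen (0.41 to 0.79), Mdm2 (0.42 to 0.73), Sesn2 (0.30 to 0.60) and Mdm4 (0.14 to 0.59). The cause of these shifts was not tested. Depth limits cannot be given from FPKM.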
